A study of Rattus norvegicus with 7 samples.

Results

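The respiratory chain and ATP synthase of mitochondria were followed through the genes that encode their subunits. Members were all probe sets with exactly 1 gene symbol in the platform annotation whose symbol opened with Nduf followed by a, b, c, s or v, was Sdha, Sdhb, Sdhc or Sdhd, or opened with Uqcr, with Cox and a digit from 4 to 8, or with Atp5. Ndufa4l2 and Cox4i2, isoforms induced by low oxygen, were kept out. The rule found 84 genes on 94 probe sets, out of 14217 genes with 1 symbol and 31042 probe sets on the array. Of the 84 genes, 75 encode subunits: 34 of complex I, 4 of complex II, 7 of complex III, 15 of complex IV (with Ndufa4, now placed there) and 15 of complex V. The other 9 are 6 complex I assembly factors, the supercomplex factor Cox7a2l, the ATP synthase inhibitor Atp5if1 and a Cox6c pseudogene.

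The study asked how sorafenib alters lung gene expression in a rat model of pulmonary hypertension. Affymetrix arrays were hybridised with RNA of 7 Dahl salt-sensitive rats, 1 array taken as 1 animal, from right lungs flushed with saline. The 3 arrays called HSU here came from hypoxic rats (FiO2 about 9.5%) that received SU-5416, a VEGF receptor inhibitor. The 4 arrays called HSU_Sor came from rats with the same hypoxia and SU-5416 plus sorafenib, a kinase inhibitor whose targets include RAF and the VEGF and PDGF receptors. Lungs were collected at 3.5 weeks. Normoxic rats and rats with hypoxia alone were not analysed here, so every difference below is between animals that all had hypoxia and SU-5416. The titles mark each HSU replicate with the letter b (1b, 2b, 3b) and none of the HSU_Sor replicates (1 to 4). If the letter stands for a batch, batch and sorafenib cannot be told apart.

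Complex I (NADH dehydrogenase) and complex II (succinate dehydrogenase) pass electrons from nutrients to ubiquinone, complex III passes them to cytochrome c and complex IV (cytochrome c oxidase) hands them to oxygen. The proton gradient built on the way drives complex V, the ATP synthase. A few subunits are encoded in mitochondrial DNA, and those genes are not part of the rule. In lung, alveolar type II cells, which make surfactant, and heart muscle that sheathes the large pulmonary veins in rodents are known to be rich in mitochondria. Several complex IV subunits exist as a ubiquitous form and a heart and skeletal muscle form.

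Transcription of these nuclear genes is known to be driven in many tissues by the factors NRF1, GABPA (also called NRF2, an ETS factor) and YY1. RefSeq promoter windows of build GRCr8, from 250 bases before to 50 bases after the annotated start, were at hand for 77 of the 84 genes and were searched on both strands for 3 motifs of 8 letters. The letters of NRF1 (GCATGCGC) were in 9 of the 77 windows (11.7%), beside 2.47% of all 33469 promoters and 4.15% of the 13192 promoters of genes on the array. The ETS letters (CCGGAAGT) were in 8 (10.4%), beside 3.81% and 6.38%. YY1 letters (AAGATGGC) were in 16 (20.8%), beside 3.17% and 4.48%, and in 12 of these 16 genes the letters lay after the start. The YY1 letters hold an ATG, and the NRF1 letters can overlap themselves on the opposite strand. In all 28 genes held at least 1 motif and 5 held more than 1, while none of the 3 muscle isoforms held any. A match is a description of the letters and not a binding site. Stretches of 30 bases around a match are printed for some of the 4 genes with the smallest p of each complex. For complex II these are all its genes. Other matches, as in Ndufb7, Uqcrh and Atp5pf, are not printed. The motif is in capitals, 5′ to 3′ along the strand of the gene.
Ndufa13 (ETS, chr16:19560506-19560535, plus strand): tccgctggccaCCGGAAGTcgcggatcctg
Ndufa9 (YY1, chr4:161374142-161374171, minus strand): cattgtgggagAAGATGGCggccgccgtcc
Sdhb (NRF1, chr5:158547756-158547785, plus strand): aagcccagtggGCATGCGCcctactggccg
Sdhc (YY1, chr13:86098004-86098033, minus strand): ggccggaactcAAGATGGCtgcgctcttgc
Uqcrq (ETS, chr10:38089982-38090011, minus strand): ttccgctcctcCCGGAAGTgacgtgcaaag
Cox5b (ETS, chr9:46417812-46417841, plus strand): tctgtctgttcCCGGAAGTgcatctgcttg
Atp5po (NRF1, chr11:44657522-44657551, minus strand): cgccgacgcgcGCATGCGCtctggcatcac
Atp5mg (NRF1, chr8:54130628-54130657, minus strand): caatgacGCATGCGCatttccccacttcaa
The ETS letters of Ndufa13, Uqcrq and Cox5b begin 9, 22 and 14 bases before the start, and the YY1 letters of Sdhc and Ndufa9 begin 4 and 11 bases after it.

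The values are log2 expression, so a difference of 1 is a doubling, and no probe set's level is compared with another's. Array medians lay between 3.59 and 3.68 and correlations between arrays from 0.984 to 0.992 over the 15521 probe sets tested, those with a mean above 3.64. The filter kept 83 member probe sets of 79 genes, 71 of them subunit genes. The 5 genes below it were Ndufb8, the testis isoforms Cox6b2 and Cox7b2, the muscle isoform Cox6a2 and the assembly factor Ndufaf1. Ndufb8, a subunit found in all tissues, read 1.99 to 2.03 on the 7 arrays, so its probe set gave no usable level. Where a gene has several probe sets, the one with the highest mean stands for it. In bulk lung, fewer cells of a type and less RNA per cell cannot be told apart. The p-values set each difference against the spread between arrays within groups, which limma moderates over the probe sets fitted.

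Transcripts of the respiratory chain differed little between lungs with and without sorafenib. No member passed an adjusted p of 0.05 in limma, and the lowest adjusted p among members was 0.683. The share of all probe sets tested that passed was also 0%. At an unadjusted p below 0.05, 4 of the 83 member probe sets were lower in HSU_Sor, beside 3.67% of all probe sets tested, and 0 were higher, beside 2.33%. These were Ndufa13, Cox7c, Cox5a and Atp5mg. The HSU and HSU_Sor arrays did not overlap for 4 members that were lower (3.25% of all probe sets tested) and 2 that were higher (2.01%). The lower ones were Ndufa13, Cox5a, Atp5f1b and Atp5me, and the higher ones Sdha and Ndufa6. The counts were thus close to those of the array as a whole.

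The data bound most of these differences tightly. The 95% confidence interval of the difference lay within a 1.4-fold change in either direction, the minimum fold change set in the study description, for 78 of the 83 member probe sets (94%). The share over all probe sets tested was 66.3%, and over the 1541 probe sets with a mean above 12, the brightness of many members, 80.1%. Among the 71 subunit genes 69 lay within 1.4-fold, and the exceptions were Cox5a and the muscle isoform Cox8b. The subunit differences ran from -0.47 (Cox5a) to 0.35 (Cox8b) with a median of -0.04 and a median SE of 0.07.

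**Figure D1:**
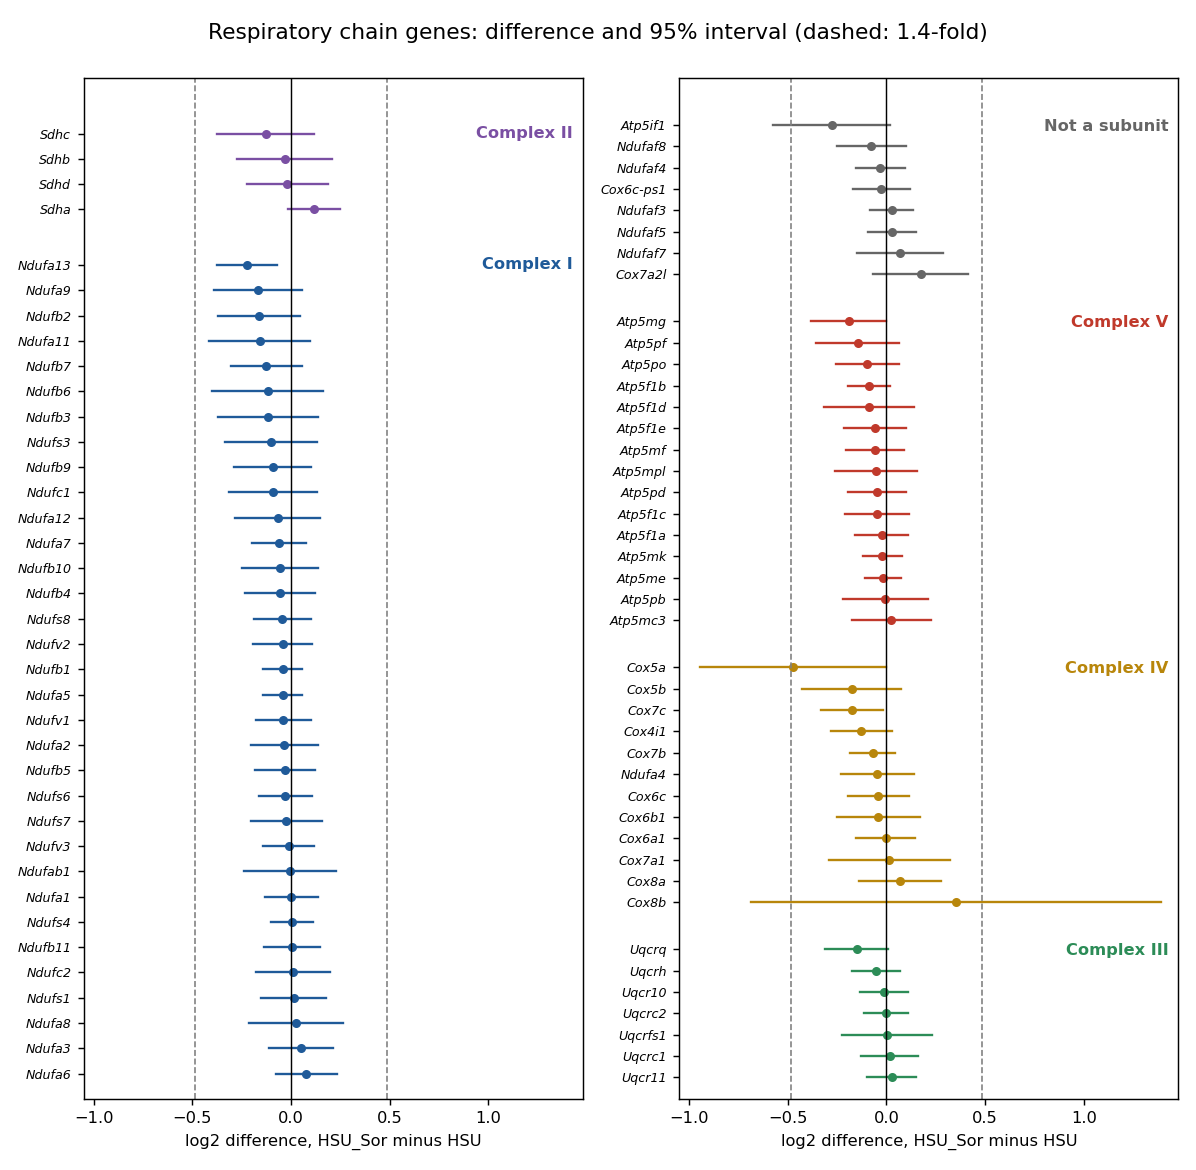
Log2 difference (HSU_Sor minus HSU) of each of the 79 member genes above the filter, with its 95% confidence interval from limma, grouped by complex. Dashed lines mark a 1.4-fold change. Most points lie slightly left of 0, a lean not seen after quantile normalization, where 45.1% of the subunit genes were lower. Only Cox5a, Cox8b and Atp5if1 have intervals that cross a dashed line.

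Small as they were, the differences leaned to one side as deposited. Of the 83 member probe sets 62 (74.7%) had a lower mean in HSU_Sor, beside 54% of all probe sets tested. Of the 71 subunit genes 55 (77.5%) were lower, but after quantile normalization only 32 (45.1%) were, with a median of 0.0053. All probe sets tested were lower in 48.3% of cases under that setting. Median centring gave 49 subunit genes lower (69%), beside 46.4% of all probe sets tested. Bright probe sets leaned the same way: of the 1541 with a mean above 12, members included, 66.6% were lower and their median was -0.04. The 44 member genes above that brightness were lower in 33 cases (75%), also with a median of -0.04. Relative to all probe sets the lean was thus kept under median centring and was not seen after quantile normalization. As deposited, the bright members had the median of bright probe sets in general, but a larger share of them was lower (75% beside 66.6%). Over all 79 member genes above the filter, dimmer ones included, 59 (74.7%) were lower, also with a median of -0.04. The part of brightness in the lean was not tested. The brightness level was chosen after the values were seen.

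**Figure D2:**
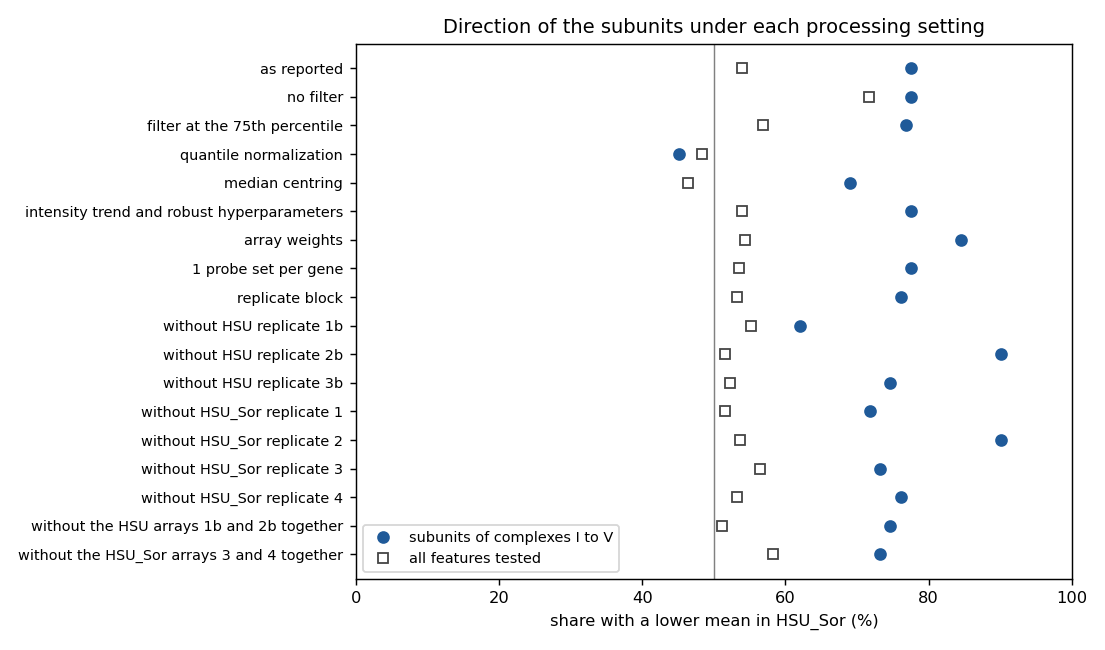
Share of the 71 subunit genes (filled circles) and of all features tested (open squares) with a lower mean in HSU_Sor, in percent, under each processing setting. The share of subunits was 77.5% as reported, 45.1% after quantile normalization, and 62% and 90.1% without HSU 1b and without HSU 2b.

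In complex I, 25 of 33 subunit genes above the filter were lower in HSU_Sor and 8 higher, with a median of -0.04 as deposited. Every interval lay within 1.4-fold. Ndufa13, an accessory subunit also known as the cell death regulator GRIM-19, had the smallest p of all members. In HSU 1b, 2b and 3b it read 12.19, 12.01 and 12.15, and in HSU_Sor 1 to 4 11.87, 11.98, 11.89 and 11.84. All 4 HSU_Sor arrays lay below all 3 HSU arrays. The difference was -0.22 ± 0.06 (SE), or 1.17-fold lower, with an unadjusted p of 0.0108 and an adjusted p of 0.683 in limma.

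Ndufb2, a small accessory subunit of the membrane arm, read 12.32, 12.01 and 12.17 in HSU against 12.05, 12.05, 11.87 and 12.02 in HSU_Sor, a difference of -0.16 ± 0.09 (SE). The groups overlapped, through HSU 2b. Ndufa9, which sits at the joint between the arms, read 10.60, 10.38 and 10.50 against 10.22, 10.51, 10.36 and 10.23, and differed by -0.17 ± 0.09 (SE). HSU_Sor 2 lay above HSU 2b and 3b there. Ndufb7, another membrane arm subunit, differed by -0.12 ± 0.07 (SE), with HSU arrays from 11.20 to 11.37 and HSU_Sor arrays from 11.05 to 11.27. None of these 3 had an unadjusted p below 0.05.

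The core subunits of complex I, the conserved set that includes the NADH-binding and iron-sulfur proteins, had small differences. Of the 6 measured, 5 were lower and 1 higher, from -0.10 (Ndufs3) to 0.01 (Ndufs1). Ndufv1, which binds NADH, read 11.30, 11.26 and 11.30 in HSU and 11.24, 11.33, 11.29 and 11.14 in HSU_Sor, a difference of -0.04 ± 0.06 (SE). Ndufs1, the largest iron-sulfur subunit, was 11.00 on each HSU array and 10.94, 11.18, 10.96 and 10.99 on the HSU_Sor arrays. Both genes overlapped between the groups. Ndufa6, an accessory subunit, was 11.54 to 11.55 in HSU and 11.57 to 11.78 in HSU_Sor. Its groups did not overlap, but the gap was small and the difference was 0.08 ± 0.06 (SE) with an unadjusted p of 0.269.

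Complex II had 3 genes lower and 1 higher, with a median of -0.03 as deposited. Sdha, the flavoprotein that oxidises succinate, read 12.01, 12.02 and 12.12 in HSU and 12.13, 12.25, 12.13 and 12.14 in HSU_Sor. All HSU_Sor arrays were above all HSU arrays, by a difference of 0.12 ± 0.06 (SE) with an unadjusted p of 0.0738 and an adjusted p of 0.874 in limma. Sdhc, a membrane anchor, read 10.57, 10.31 and 10.52 against 10.16, 10.50, 10.33 and 10.38, a difference of -0.13 ± 0.10 (SE) with overlapping groups. The iron-sulfur subunit Sdhb read 12.36, 12.15 and 12.20 against 12.10, 12.32, 12.05 and 12.36. It differed by -0.03 ± 0.10 (SE), with HSU_Sor 2 and 4 high and HSU_Sor 1 and 3 low. The other anchor, Sdhd, had the same pattern at 12.55, 12.36 and 12.41 against 12.30, 12.54, 12.33 and 12.52, and differed by -0.02 ± 0.09 (SE). The difference between Sdha and the other 3 was not tested.

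Complex III gave 4 genes lower and 3 higher of 7, with a median of -0.0039. Uqcrq, a small subunit next to cytochrome b, had the smallest p. It read 12.41, 12.25 and 12.42 in HSU and 12.15, 12.30, 12.21 and 12.16 in HSU_Sor, and only HSU_Sor 2 reached above HSU 2b. The difference was -0.15 ± 0.07 (SE), with an unadjusted p of 0.0571 and an adjusted p of 0.852 in limma. The hinge subunit Uqcrh differed by -0.05 ± 0.05 (SE), with HSU from 12.68 to 12.76 and HSU_Sor from 12.61 to 12.74. The Rieske iron-sulfur protein Uqcrfs1, which moves electrons toward cytochrome c, read 12.64, 12.51 and 12.51 against 12.43, 12.74, 12.43 and 12.63, a difference of 0.0027 ± 0.10 (SE). Core protein Uqcrc1 was at 12.07, 11.98 and 12.03 against 12.02, 12.10, 12.12 and 11.94, a difference of 0.02 ± 0.06 (SE). Uqcr11, the smallest subunit, differed by 0.03 ± 0.05 (SE). For all of these the groups overlapped.

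Complex IV had 9 genes lower and 3 higher of 12 above the filter. Without the muscle isoforms 9 of 10 were lower as deposited. Cox7c, a small subunit of all tissues, read 12.88, 12.76 and 12.93 in HSU and 12.62, 12.76, 12.61 and 12.73 in HSU_Sor, so that HSU_Sor 2 met HSU 2b. It differed by -0.18 ± 0.07 (SE), with an unadjusted p of 0.0338 and an adjusted p of 0.812 in limma. Cox4i1, the ubiquitous form of the subunit that senses the ATP level, read 13.87, 13.66 and 13.74 against 13.66, 13.66, 13.56 and 13.62, a difference of -0.13 ± 0.06 (SE). Its groups overlapped narrowly, at HSU 2b. Cox5b, a zinc-binding subunit, read 12.67, 12.27 and 12.49 against 12.28, 12.40, 12.19 and 12.32, and differed by -0.18 ± 0.10 (SE).

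Cox5a, the thyroid-hormone-binding subunit, had the largest difference of the ubiquitous subunits, and it came from a dim probe set. That set read 7.82, 7.85 and 8.32 in HSU and 7.82, 7.28, 7.73 and 7.27 in HSU_Sor. The groups did not overlap, with HSU_Sor 1 just under HSU 1b. The difference was -0.47 ± 0.20 (SE), 1.39-fold lower, with an unadjusted p of 0.0486 and an adjusted p of 0.829 in limma. A brighter probe set that Cox5a shares with a near-identical locus, and that is outside the rule, read 12.90, 12.64 and 12.77 against 12.58, 12.74, 12.64 and 12.76, a difference of -0.09 ± 0.08 (SE). The size seen on the dim set was not seen there.

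**Figure D3:**
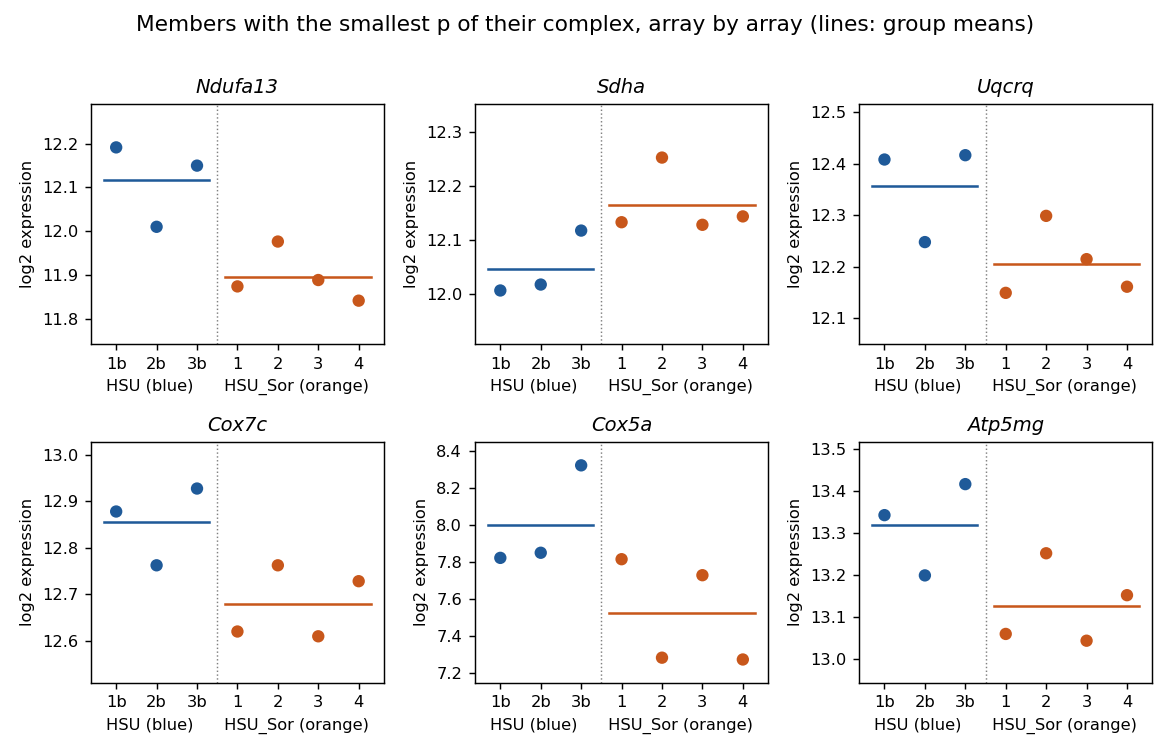
Log2 expression of 6 members with the smallest unadjusted p of their complexes on the 3 HSU arrays (blue) and 4 HSU_Sor arrays (orange), with group means as lines. Ndufa13 and Cox5a do not overlap and are lower in HSU_Sor, Sdha does not overlap and is higher, and Uqcrq, Cox7c and Atp5mg overlap through HSU 2b and HSU_Sor 2.

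Of the muscle isoforms of complex IV, Cox8b varied most between arrays. Cox8b, the muscle form of subunit VIII, read 9.05, 9.56 and 7.85 in HSU and 9.05, 9.11, 9.75 and 8.78 in HSU_Sor. HSU 3b was the lowest of the 7 arrays and HSU_Sor 3 the highest. The difference of 0.35 ± 0.43 (SE) had a 95% interval from -0.69 to 1.39, and without HSU 3b the difference was -0.13. Its ubiquitous partner Cox8a read 12.92, 12.63 and 12.65 against 12.76, 12.91, 12.76 and 12.76, a difference of 0.07 ± 0.09 (SE). Cox7a1, the muscle form of subunit VIIa, read 9.51, 9.30 and 9.13 against 9.48, 9.38, 9.38 and 9.07, a difference of 0.02 ± 0.13 (SE). The partner of Cox7a1, Cox7a2, is measured only on a probe set shared with a related locus, which differed by -0.14 ± 0.07 (SE). Cox6a2, the muscle form of subunit VIa, stood at 3.02 on HSU 2b and between 2.42 and 2.45 on the other 6 arrays, all below the filter. Cox6a1, its partner, differed by -0.0035 ± 0.06 (SE).

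Heart muscle transcripts were present in these lungs in amounts that differed between animals, and are given beside the muscle isoforms. Myl7, the atrial myosin light chain, read 11.17, 10.87 and 7.96 in HSU and 8.88, 9.06, 9.86 and 7.57 in HSU_Sor. Myh6, the atrial myosin heavy chain, read 10.65, 10.79 and 8.29 against 9.06, 8.65, 9.29 and 7.85. HSU 3b and HSU_Sor 4 were the lowest of their groups for both genes, as they were for Cox8b and Cox7a1. Myl4 and Tcap shared this order, but not every cardiac gene did. Gja5 was highest on HSU 3b among HSU (11.09), Pln highest on HSU_Sor 4 among HSU_Sor (7.83), and Casq2 lowest on HSU_Sor 2 (3.49). The atrial peptide gene Nppa was lowest on HSU 3b among HSU (6.76) but highest on HSU_Sor 4 among HSU_Sor (6.80, with 6.74 to 6.79 on the others). The 27 cardiac genes measured had a median difference of -0.33, beside -0.0093 over all genes. Above the filter were 11, among them Mb, which passed only through HSU 1b and 2b. It read 6.88 and 5.59 there and 2.57 to 2.64 on the other 5 arrays. For this reason neither a count nor a mean per array is drawn from the 11. The ventricular genes Myl2 and Myh7 lay near 2.3 and 2.5 in both groups. Brown fat is also known to express Cox8b and Cox7a1, and its defining genes Ucp1 and Cidea read 2.17 and 1.91 in HSU and 2.15 and 1.88 in HSU_Sor. The part of heart muscle or brown fat in the values of Cox8b and Cox7a1 was not tested.

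**Figure D4:**
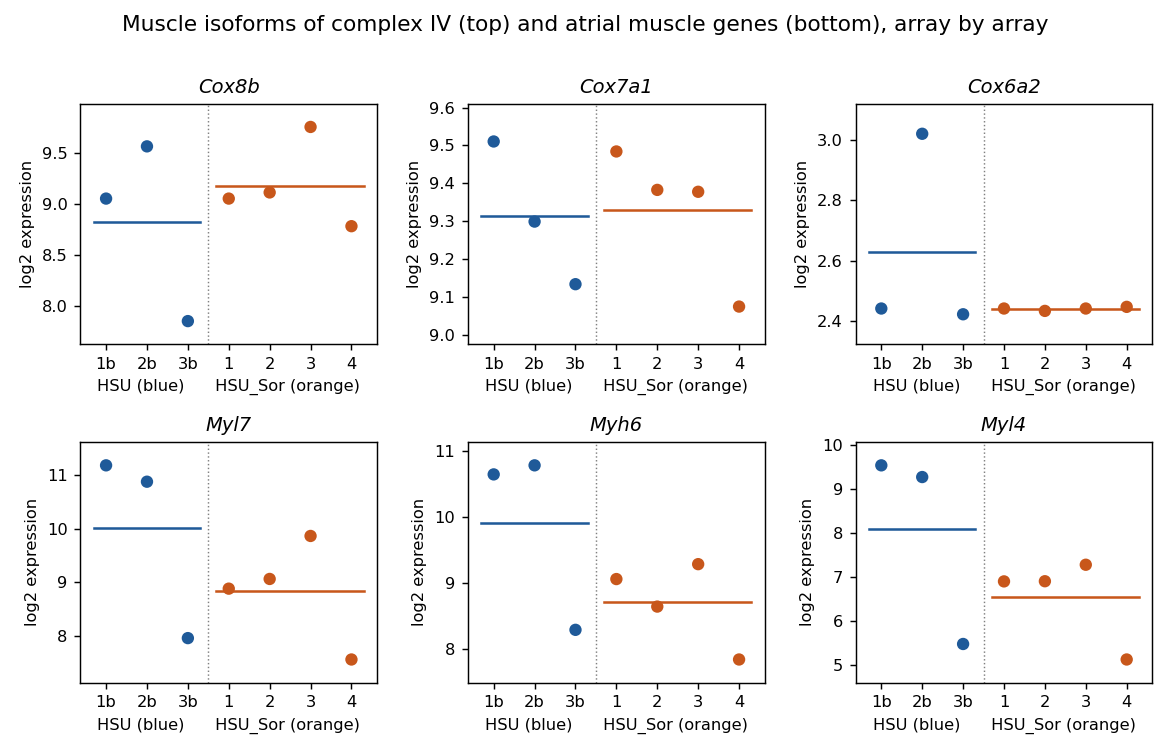
Log2 expression of the muscle isoforms Cox8b, Cox7a1 and Cox6a2 (top) and of the atrial muscle genes Myl7, Myh6 and Myl4 (bottom) on the 3 HSU arrays (blue) and 4 HSU_Sor arrays (orange), with group means as lines. Cox8b, Cox7a1 and the 3 atrial genes drawn are lowest on HSU 3b among HSU and on HSU_Sor 4 among HSU_Sor. Cox6a2 stays at the floor on 6 arrays. The cardiac genes Gja5, Pln and Casq2 and the atrial gene Nppa, not drawn, do not share this order.

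Complex V leaned most to one side as deposited, with 14 of 15 genes lower and a median of -0.05. All intervals lay within 1.4-fold, and under quantile normalization the median was -0.0042. By part of the enzyme, 5 of 5 subunits of the F1 head, 4 of 4 of the peripheral stalk and 5 of 6 of the membrane part were lower. Atp5mg, the g subunit of the membrane part that helps ATP synthase form dimers, read 13.34, 13.20 and 13.42 in HSU and 13.06, 13.25, 13.04 and 13.15 in HSU_Sor. HSU_Sor 2 lay above HSU 2b. It differed by -0.19 ± 0.08 (SE), with an unadjusted p of 0.0462 and an adjusted p of 0.829 in limma.

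Atp5f1b, the catalytic beta subunit, read 13.52, 13.46 and 13.53 in HSU and 13.43, 13.45, 13.37 and 13.40 in HSU_Sor. The groups did not overlap, and the difference was -0.09 ± 0.04 (SE), 1.06-fold lower. Atp5f1a, the alpha subunit beside it in the F1 head, read 12.21, 12.12 and 12.27 against 12.13, 12.24, 12.14 and 12.19, a difference of -0.02 ± 0.06 (SE). The stalk subunit Atp5pf read 12.19, 11.93 and 12.20 against 11.90, 12.08, 11.89 and 11.98, a difference of -0.15 ± 0.09 (SE). Atp5po, known as the oligomycin sensitivity protein, read 12.13, 11.95 and 12.01 against 11.84, 12.03, 11.94 and 11.91, a difference of -0.10 ± 0.07 (SE). The stalk genes overlapped between groups, with HSU 2b within the range of HSU_Sor. Atp5me, the e subunit, did not overlap, but its dim probe set read 5.06 to 5.08 in HSU and 5.04 to 5.05 in HSU_Sor.

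The members that are no subunits split evenly, with 4 lower and 4 higher of 8 above the filter. Atp5if1, which blocks ATP synthase when it runs backward, read 11.63, 11.56 and 11.97 in HSU and 11.52, 11.57, 11.26 and 11.42 in HSU_Sor. HSU_Sor 2 was just above HSU 2b. The difference was -0.28 ± 0.12 (SE), with an unadjusted p of 0.0631 and an adjusted p of 0.861 in limma. Cox7a2l, which holds complexes III and IV together in supercomplexes, read 12.92, 12.69 and 12.94 against 12.93, 13.21, 12.91 and 13.04, a difference of 0.17 ± 0.10 (SE). The 5 assembly factors above the filter lay between -0.08 (Ndufaf8) and 0.07 (Ndufaf7).

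Many subunits shared an order of the arrays within each group. The median deviation of the 71 subunit genes from their 7-array means was 0.10, -0.04 and 0.03 in the order HSU 1b, 2b, 3b. It was -0.07, 0.06, -0.04 and -0.02 in the order HSU_Sor 1, 2, 3, 4. HSU 1b was thus the highest array and HSU 2b lay among the HSU_Sor arrays. The groups overlapped for each of the 5 complexes. HSU 2b was the lowest of the HSU arrays for 55 of the 71 genes (77.5%), beside 29.2% of all probe sets tested and 54.4% of those with a mean above 12. HSU_Sor 2 was the highest HSU_Sor array for 52 (73.2%), beside 24.1% and 43.3%. HSU_Sor 2 and 4 both exceeded HSU_Sor 1 and 3 for 36 (50.7%), beside 18.8% and 24.2%, as in the values of Sdhb and Sdhd above. These orders were chosen after the values were seen.

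Leaving out an array moved the lean accordingly. Without HSU 1b, 62% of the subunit genes were lower in HSU_Sor, beside 55.2% of all probe sets tested, and the median was -0.01. Without HSU 2b or without HSU_Sor 2 the share was 90.1%, beside 51.6% and 53.7% of all, and the median -0.07. Without HSU 2b, 10 of the 83 member probe sets were lower at an unadjusted p below 0.05, beside 3.86% of all probe sets tested in the same fit. Without HSU 1b there was 1, beside 3.22%, and without HSU 3b there was 1, beside 2.29%. Without HSU_Sor 1, 3 or 4 there were 2 each, beside 2.47%, 3.94% and 3.16%. In each of these fits 0 members passed the adjusted threshold in limma.

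**Figure D5:**
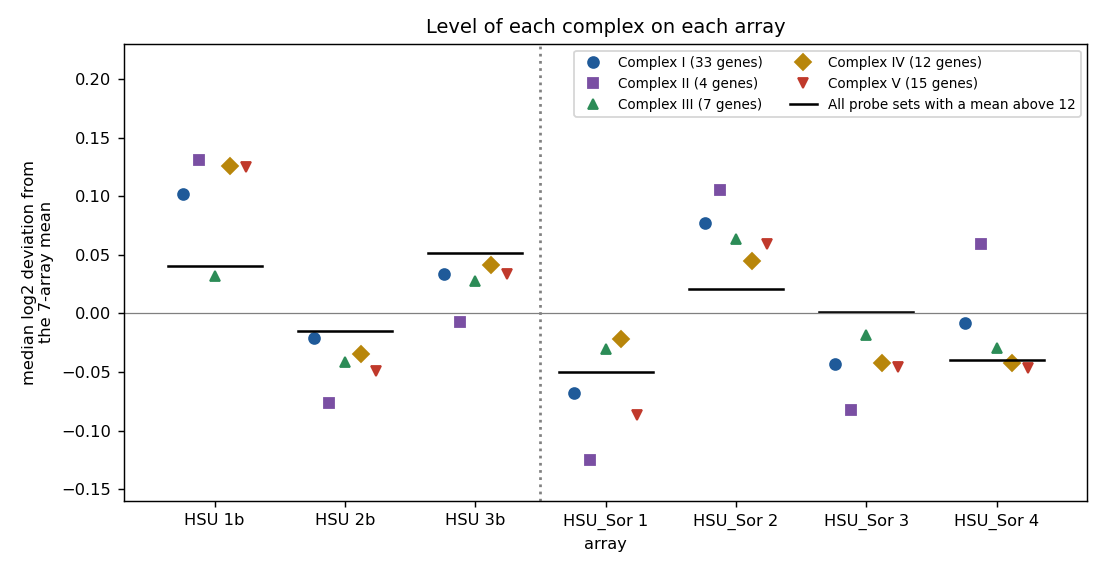
Median log2 deviation of the subunit genes of each complex from their mean over the 7 arrays, by array, with the median of all probe sets with a mean above 12 as black bars. Complexes I to V lie above 0 on HSU 1b and HSU_Sor 2 and below 0 on HSU 2b, HSU_Sor 1 and HSU_Sor 3, so that the groups overlap. Complex IV is lower on HSU_Sor 3 and 4 than on HSU_Sor 1. A direction between the groups depends on scaling, as the share of lower subunits was 77.5% as deposited and 45.1% after quantile normalization.

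Other lists of mitochondrial genes were described alike, each gene by its brightest probe set. Mitochondrial ribosomal proteins, which make the subunits encoded in mitochondrial DNA, were lower for 37 and higher for 35 of 72 above the filter, with a median of -0.0056. At an unadjusted p below 0.05 there were 5 lower and 0 higher. Over all probe sets tested 3.67% were lower and 2.33% higher at that threshold, shares that also apply to the lists below. The lowest adjusted p was 0.756 in limma. The smallest p were those of Mrps18b (-0.33 ± 0.10, SE), Mrpl12 (-0.22 ± 0.07, SE) and Mrps26 (-0.24 ± 0.09, SE). Array by array their mean deviation was 0.04, -0.05 and 0.03 in HSU and -0.06, 0.06, -0.04 and 0.0074 in HSU_Sor, the order of arrays seen in the subunits, with HSU 2b low and HSU_Sor 2 high.

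Pyruvate dehydrogenase and citric acid cycle genes, which feed electrons to the chain, were lower for 12 and higher for 4 of 16, with a median of -0.04. Suclg2 and Sucla2 encode alternative subunits of succinyl-CoA ligase, for GTP and for ATP. Suclg2 read 11.88, 11.92 and 11.96 in HSU and 12.02, 12.06, 12.06 and 12.03 in HSU_Sor, without overlap, a difference of 0.12 ± 0.04 (SE). Sucla2 read 10.67, 10.85 and 10.89 against 10.52, 10.66, 10.44 and 10.70, with overlap, a difference of -0.22 ± 0.09 (SE). They had unadjusted p of 0.0262 and 0.0402 and both an adjusted p of 0.812 in limma. Pdhx, which anchors the E3 part of pyruvate dehydrogenase, differed by 0.22 ± 0.09 (SE) without overlap.

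Assembly factors outside the rule were more often higher in HSU_Sor, with 16 higher and 9 lower of 25 and a median of 0.06. Oxa1l, the inner membrane insertase, read 10.70, 10.32 and 10.43 in HSU and 10.91, 10.95, 10.63 and 10.75 in HSU_Sor, a difference of 0.33 ± 0.12 (SE) with overlap at HSU 1b. Cox20, which helps insert subunit 2 of complex IV, read 7.37, 7.73 and 7.51 against 7.74, 7.98, 7.77 and 7.78, without overlap, a difference of 0.28 ± 0.10 (SE). Their unadjusted p were 0.0325 and 0.0350 and both had an adjusted p of 0.812 in limma. The difference between assembly factors and subunits was not tested.

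A list of Cyc1 (cytochrome c1, a complex III subunit whose symbol the rule does not match), nucleotide and phosphate carriers, porins and uncoupling proteins gave 7 lower and 1 higher of 8, with a median of -0.09 and 0 at an unadjusted p below 0.05. The higher gene was the uncoupling protein Ucp2 (0.19 ± 0.13, SE), and Cyc1 differed by -0.13 ± 0.06 (SE). Slc25a4, the muscle-type ADP/ATP carrier, had the smallest p and a difference of -0.26 ± 0.11 (SE), with 12.52, 12.25 and 12.18 against 12.08, 12.23, 11.93 and 11.98. Regulators of mitochondrial biogenesis and genome upkeep were lower for 9 and higher for 6 of 15, with a median of -0.03. Tfam, which packs mitochondrial DNA, differed by -0.16 ± 0.09 (SE), and Esrra, a nuclear receptor that activates respiratory genes, by 0.12 ± 0.07 (SE).

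Hypoxia-linked regulators of respiration, the list that holds the isoforms kept out of the rule, gave 7 lower and 3 higher of 10, with 0 at an unadjusted p below 0.05. Cox4i2, the isoform that replaces Cox4i1 in low oxygen and is high in lung, read 9.66, 10.27 and 9.82 in HSU and 10.44, 11.13, 10.09 and 9.76 in HSU_Sor, a difference of 0.44 ± 0.34 (SE). Ndufa4l2, which is induced by HIF-1, read 10.81, 10.96 and 10.78 against 10.68, 11.03, 10.19 and 9.82, a difference of -0.42 ± 0.28 (SE). HSU_Sor arrays spread over more than a log2 unit for both. Bnip3, a HIF target that marks mitochondria for removal, differed by -0.39 ± 0.17 (SE), and Ldha, which turns pyruvate to lactate, by -0.19 ± 0.09 (SE).

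Markers of lung cells are given beside the subunits. Of the 8 alveolar type II genes 7 were lower and 1 higher, with a median of -0.06 and 0 at an unadjusted p below 0.05. Sftpc, the defining surfactant gene, was 15.46 to 15.49 in HSU and 15.39 to 15.54 in HSU_Sor. The mean deviation of the list was 0.12, -0.07 and 0.03 on the HSU arrays and -0.06 to 0.03 on the HSU_Sor arrays, high on HSU 1b and low on HSU 2b like the subunits. Smooth muscle genes were all lower, 10 of 10 with a median of -0.44, beside 54% of all probe sets tested. At an unadjusted p below 0.05 there were 4, beside 3.67% of all. Of these smooth muscle genes 0 passed an adjusted p of 0.05, and the lowest was 0.1495 in limma. Their mean deviation was 0.24 to 0.41 in HSU and -0.49 to -0.0013 in HSU_Sor. Macrophage genes split into 3 lower and 3 higher, and the 3 lower ones, the complement genes C1qa, C1qb and C1qc, had differences of -1.70, -2.69 and -1.68. The 2 of 5 red cell genes above the filter were lowest on HSU_Sor 3 and 4, and Hbb read 14.23, 14.51 and 14.51 against 14.75, 14.27, 12.11 and 11.59. The part of these cells in the subunit values was not tested.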

How the data were processed

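Lung RNA of 7 rats (3 HSU, 4 HSU_Sor) was measured on Affymetrix arrays. The values deposited by the authors are on the log2 scale, 1 per probe set and array. RMA and GCRMA are both named, per the submitters' processing notes. The sources used here do not say which gave the deposited values, or in what version. Either way values are set on a common scale across arrays, and dim probe sets gather at a floor, which compresses their differences. Sources name neither a batch nor separate extractions. The number of arrays limits the precision, and the 95% confidence intervals rest on the moderated spread between arrays within groups.

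The 57 control probe sets were left out. Of 31042 others, 20826 had 1 gene symbol, 436 several and 9780 none. All 84 member genes matched the RefSeq gene table (assembly GRCr8) by gene identifier, and 0 symbols changed. A further 7 probe sets with several symbols were left out of the rule.

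HSU_Sor minus HSU was fitted with limma 3.58.1 (lmFit, eBayes, R 4.3.3), two-sided, with no covariate, on 15521 probe sets with a mean above the median of 3.64. P-values were adjusted by Benjamini-Hochberg over all of them. Members below the filter came from a fit on all 31042. The script was tested on simulated data. Lists got counts and medians only.

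Members, lists, tests and alternatives were chosen with earlier results of these data known. Named were, per complex, the 4 genes with the smallest p, the muscle isoforms and partners, and core subunits (29 genes), and up to 3 genes per list of 17. Lists covered mitochondrial ribosome, citric acid cycle, assembly factors, carriers, biogenesis, hypoxia-linked genes, and cardiac, skeletal and smooth muscle, brown fat, adipocyte, endothelial, alveolar type I and II, ciliated, macrophage and erythroid markers. Further genes (Ndufa6, Ndufs3, Ndufb8, Atp5me, Atp5if1, Cox7a2l and list genes beyond 3) were named after their values were seen. Alternatives were other filters, quantile normalization, median centring, an intensity trend, array weights, 1 probe set or the mean per gene, a replicate block and left-out arrays.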

Additional observations from a re-analysis of the deposited data

Results flagged for a closer look

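Of the 79 member genes above the filter, 11 had 1 HSU_Sor array that stood far from the other 3 (gap over range above 0.829). For normally spread values such an array is seen in about 1 in 20 groups, and the HSU group of 3 cannot be tested. The gap was not taken over all probe sets, so the 11 have no share beside them and are not read as an excess. Tied values, as for Ndufa7, also raise the gap over range. HSU_Sor 2 stood high for Ndufa6 (11.78, the others 11.57 to 11.58), Ndufs6 (12.59, the others 12.53 to 12.54), Sdha (12.25, the others 12.13 to 12.14), Cox8a (12.91, the others at 12.76) and Ndufaf5 (7.09, the others 6.94 to 6.97). HSU_Sor 4 stood low for Ndufa7 (11.67, the others at 11.71), Ndufaf4 (9.41, the others 9.50 to 9.52) and Ndufaf8 (8.40, the others 8.56 to 8.58). HSU_Sor 1 stood low for Ndufa11 (10.58, the others 10.93 to 10.94) and high for Ndufaf7 (5.94, the others 5.61 to 5.64), and HSU_Sor 3 stood low for Atp5me (5.04, the others at 5.05).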

How the results depend on the processing

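The count of member probe sets past an adjusted p of 0.05 was 0 in limma under every alternative run, leave-one-out fits included. At an unadjusted p below 0.05 the 4 lower members became 1 with a filter at the 75th percentile and 2 under quantile normalization. Over all probe sets tested in the same fits the shares were 4.69% and 3.19%. The count was 1 under median centring, beside 2.52% of all, and 0 without HSU_Sor 3 and 4 together, beside 3.92%. Leaving out 1 array gave 1 to 10, beside 2.29% to 3.94% of all. The 0 higher members became 1 without the filter and 2 under quantile normalization, and 0 to 1 with 1 array left out. The share of higher probe sets over all tested was not taken under these settings. Causes were not tested, apart from fewer arrays or probe sets where the alternative removes them. Complex medians moved by less than 1 pooled SD of the arrays within groups. They ranged from -0.06 to -0.00087 for complex I, -0.07 to 0.03 for II, -0.03 to 0.04 for III, -0.08 to -0.0031 for IV and -0.09 to -0.0042 for V.

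A block on the replicate number left 0 members at an unadjusted p below 0.05, where 3.54% of all probe sets tested were lower. HSU_Sor 4 has no HSU array of its number, so the block takes it out of the comparison. Both this fit and the one without HSU_Sor 4 gave 54 subunit genes lower and a median of -0.0456. The block also leaves fewer degrees of freedom for the spread, so its count is not comparable with the 4 of the main fit. Deviations of same-numbered arrays from their group means correlated at -0.059, 0.179 and 0.144, within the range of the differently numbered arrays. With 3 HSU and 4 HSU_Sor arrays these correlations are too few to decide whether the numbers pair the animals.

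Of the 29 named genes 17 kept their sign under every alternative run for them and 12 did not. Quantile normalization turned Sdhb to 0.0165, Sdhd to 0.0111, Uqcrh to 0.0053, Cox6a1 to 0.0520 and Atp5f1a to 0.0161, and median centring turned Cox6a1 to 0.0123. Array weights turned Uqcrfs1 to -0.0227, and the replicate block turned it to -0.0201 and Cox6a1 to 0.0238. Without HSU 1b and 2b together Sdhb was 0.0095, Sdhd 0.0101, Uqcr11 -0.0124 and Cox6a2 0.0185, and without HSU_Sor 3 and 4 Cox6a1 was 0.0597. With 1 array left out, values ran from -0.0825 to 0.0301 for Sdhb, -0.0582 to 0.0352 for Sdhd, -0.0427 to 0.0238 for Cox6a1, -0.0061 to 0.0448 for Uqcr11, -0.0091 to 0.0507 for Uqcrc1, -0.2906 to 0.0089 for Cox6a2, -0.0598 to 0.0470 for Uqcrfs1, -0.0751 to 0.1136 for Cox7a1, -0.1329 to 0.7226 for Cox8b, -0.0634 to 0.0093 for Atp5f1a and -0.0406 to 0.0394 for Ndufs1. Cox5a and Cox6a2 lie under the 75th percentile and had no value there.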

Other observations

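The rule leaves out 7 probe sets that subunits share with a related locus. Apart from the set of Cox5a described above, they hold 6 subunits that no other member probe set measures. Their differences ran from -0.15 for the set of Atp5mc1, the ring subunit of ATP synthase, to 0.06 for the set of its sister gene Atp5mc2, with SE of 0.09 and 0.10. The sets of Uqcrb (-0.03), Ndufs5 (-0.02) and Ndufa10 (-0.01) lay close to 0. All 7 overlapped between the groups.

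Of the 9 member genes with more than 1 probe set, 7 had the same sign on all of them. For Uqcrc2, a core protein of complex III, the bright set differed by -0.0039 and a dimmer set by 0.19 ± 0.31 (SE). That set was high in HSU_Sor 2 (8.33) and HSU_Sor 4 (8.41) and low in HSU_Sor 1 (7.36) and HSU_Sor 3 (7.40), an order also seen for Sdhb and Sdhd. For Ndufaf7 the dimmer set was below the filter.

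Some members had the same value on several arrays, such as 11.00 for Ndufs1 on the 3 HSU arrays and 11.71 for Ndufa7 on HSU_Sor 1, 2 and 3. What made such ties was not tested.

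Among the other cell types, endothelial genes were lower for 4 and higher for 3 of 7, with Vwf at 0.41 ± 0.08 (SE) and an adjusted p of 0.567 in limma. Of 5 alveolar type I genes 2 were lower and 3 higher, with the water channel gene Aqp5 at 0.29 ± 0.07 (SE). Ciliated cell genes were lower for 4 and higher for 1 of 5. Adipocyte genes were lower for all 3 above the filter, with Fabp4 at -1.38 ± 0.51 (SE), while Adipoq, which defines white fat, was at 2.08 in HSU and 2.07 in HSU_Sor. The 11 skeletal muscle genes measured had a median of -0.01. Above the filter were 2, both lower, beside 54% of all probe sets tested. Of these Acta1 differed by -1.46 ± 0.95 (SE), and it read 8.16, 5.13 and 4.80 in HSU against 3.81 to 6.05 in HSU_Sor, highest on HSU 1b.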
